A study of Homo sapiens with 5 samples.

Results

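The beta-tubulin genes were followed on 5 arrays of GFP-SAS cells, a squamous cell carcinoma line of the human tongue that carries green fluorescent protein. The family was taken as TUBB, TUBB1, TUBB2A, TUBB2B, TUBB3, TUBB4A, TUBB4B and TUBB6, and a gene was read from the probe sets that name that gene alone. All 8 genes had at least 1 such probe set, 22 probe sets in all, of 18239 genes and 49386 probe sets in the table. Cells had been exposed for 24 h to the solvent DMSO, to MLN8237 at 100 nM (alisertib, a small-molecule inhibitor of the kinase Aurora A), to siNT (an siRNA with no intended target), or to siAURKA-1 or siAURKA-2, which are siRNAs against AURKA, the gene of Aurora A, at 10 nM. All arrays are of this 1 line and no untreated cells were analysed here, so that siNT and DMSO differ both in siRNA exposure and in solvent, which cannot be told apart. Differences of the siAURKA arrays from DMSO carry the same mix beside the silencing of AURKA. Each group was measured on 1 Affymetrix array, so no value below has a replicate check, no test was possible, and precision is limited by having so few arrays.

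Beta-tubulin pairs with alpha-tubulin to form the dimers from which microtubules, and so the mitotic spindle, are built. Vertebrate cells carry several beta-tubulin genes whose proteins are nearly alike except at the carboxy-terminal tail, which is where glutamate and glycine chains are added and many microtubule-associated proteins bind. TUBB is the form of most dividing cells, TUBB4B is also widely used and is abundant in cilia, TUBB6 is found at lower amounts in many tissues, TUBB2A, TUBB2B, TUBB3 and TUBB4A are best known from brain, and TUBB1 belongs to megakaryocytes and platelets. Cells also control tubulin mRNA by its product: when unassembled dimers build up, tubulin mRNA is degraded during translation, a process called autoregulation that needs the factor TTC5.

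The deposited numbers were centred on the median of the 5 arrays within each probe set, so a value of 0 is the middle array of that probe set and not an absent transcript. A value compares arrays for 1 gene and gives no abundance, and genes could neither be ranked by level nor checked against background. All differences are log2 differences between 2 arrays, taking the deposited scale as log2, and "at least 2-fold" means a difference of 1 or more in size. The value of a gene on an array is the median of its probe sets. Affymetrix identifiers that end in _x_at or _s_at mark probe sets that may also match related transcripts, and this applied to 10 and 7 of the 22 beta-tubulin probe sets. Signals of these near-identical genes can therefore mix, and TUBB2B and TUBB3 each rested on a single _x_at probe set.

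Promoter sequence is shown for the genes on which the results turn. These are TUBB, TUBB4B and TUBB2A, whose gene values were lower on both siAURKA arrays than on the others, and TUBB2B. TUBB2A varied most over the arrays, and TUBB2B is its close relative that hardly varied. RefSeq windows on GRCh38.p14 were matched by symbol for all 8 genes, with 12 listed starts in all. Each run is the 250 bases before a start, read 5′ to 3′ on the strand of the gene. Capitals mark the letters CCAAT or their reverse complement ATTGG, the core of the CCAAT box.
TUBB, chr6:30720102-30720351, plus strand, the first of 2 listed starts: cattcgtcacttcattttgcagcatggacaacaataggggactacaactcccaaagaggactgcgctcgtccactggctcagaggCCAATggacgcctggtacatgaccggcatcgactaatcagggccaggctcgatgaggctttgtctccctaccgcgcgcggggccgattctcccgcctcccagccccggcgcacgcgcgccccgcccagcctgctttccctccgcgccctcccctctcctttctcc
TUBB4B, chr9:137241037-137241286, plus strand: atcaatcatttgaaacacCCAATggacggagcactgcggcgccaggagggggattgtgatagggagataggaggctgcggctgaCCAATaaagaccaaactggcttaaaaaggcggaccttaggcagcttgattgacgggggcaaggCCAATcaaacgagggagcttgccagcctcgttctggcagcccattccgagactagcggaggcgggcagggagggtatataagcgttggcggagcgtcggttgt
TUBB2A, chr6:3157545-3157794, minus strand: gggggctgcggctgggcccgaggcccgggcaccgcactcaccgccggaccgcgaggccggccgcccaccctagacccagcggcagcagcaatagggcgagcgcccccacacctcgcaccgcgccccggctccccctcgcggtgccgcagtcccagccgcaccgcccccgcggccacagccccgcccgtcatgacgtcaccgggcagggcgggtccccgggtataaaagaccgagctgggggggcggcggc
TUBB2B, chr6:3227654-3227903, minus strand: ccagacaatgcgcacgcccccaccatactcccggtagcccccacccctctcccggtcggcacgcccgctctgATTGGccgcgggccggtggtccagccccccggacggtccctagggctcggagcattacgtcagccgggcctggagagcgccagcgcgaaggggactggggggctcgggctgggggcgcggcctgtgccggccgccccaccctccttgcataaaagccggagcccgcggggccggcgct
The TUBB4B window holds CCAAT or ATTGG 3 times, the printed TUBB window and the TUBB2B window hold it once, and the TUBB2A window does not hold it. Over all 12 windows of the family, 6 held it, against 32.0% of the 35116 windows in the table. The letters TATAAA, searched on both strands like every motif here, stood only in the TUBB2A window among the 12 (10.7% of all windows). TTTGAA, the core of the element called CHR, for cell cycle genes homology region, stood only in that of TUBB4B (13.3%). GGGCGG, the GC box, stood in 8 of the 12 (42.6%) and the CArG box in 0 (1.16%). No match of one motif overlapped that of another in the printed windows. These matches describe letters in the windows and were not related to the array values.

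**Figure D1:**
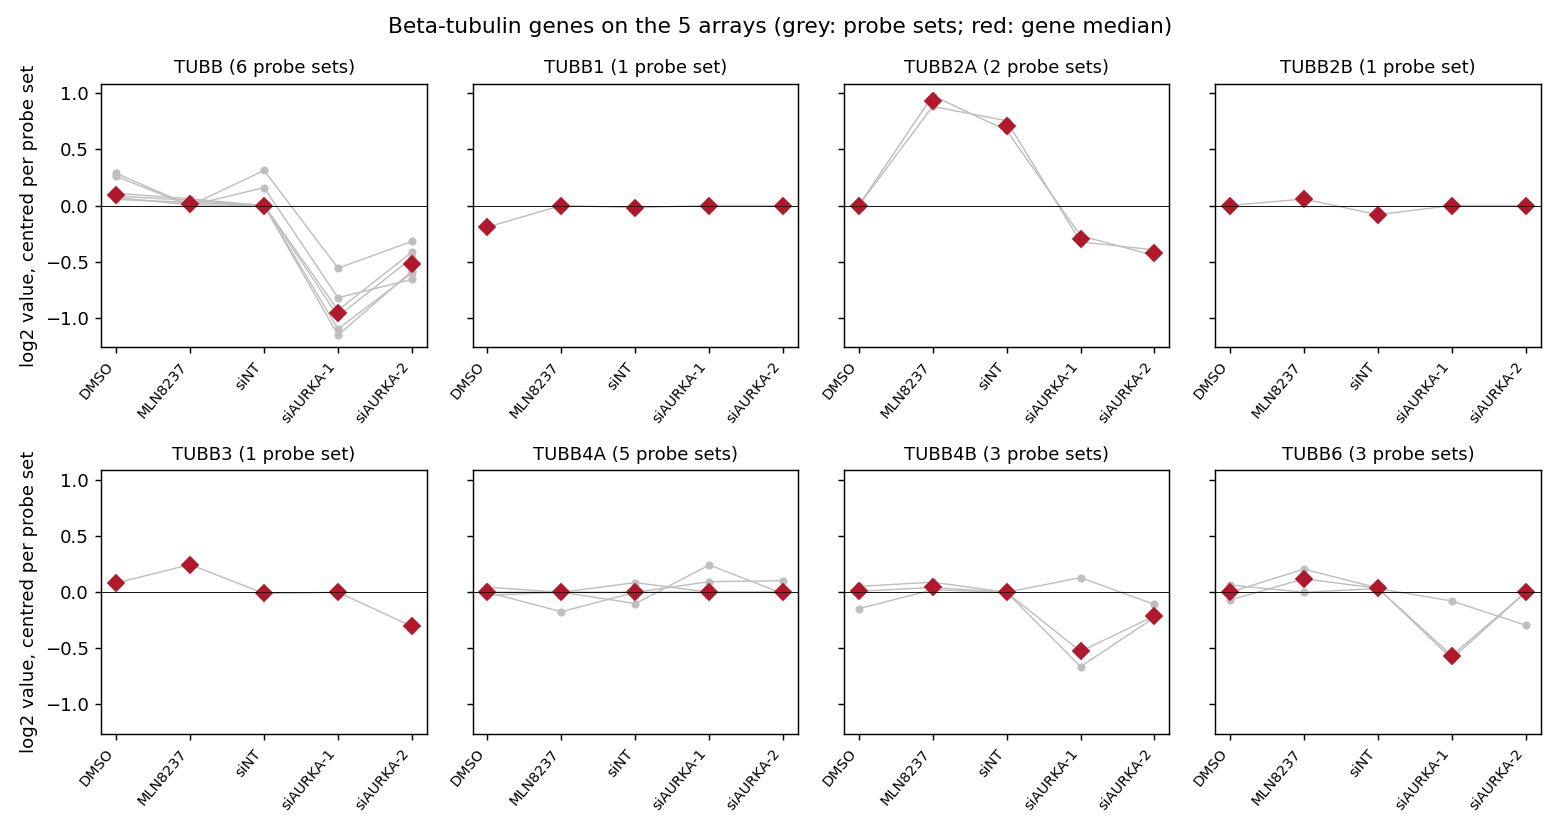
Values of the 8 beta-tubulin genes on the 5 arrays (log2, centred per probe set on the median of the arrays); grey points joined by lines are single probe sets, red diamonds are the gene medians, and each array is 1 sample. TUBB2A is high with MLN8237 (0.93) and siNT (0.71) and lowest with siAURKA-2 (-0.42), TUBB is lowest with siAURKA-1 (-0.96), and TUBB1, TUBB2B and TUBB4A lie near 0 throughout.

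The silencing itself was seen at its target. AURKA, read by 1 probe set, had values of 0.15 with DMSO, 0.64 with MLN8237, 0.00 with siNT, -3.36 on the siAURKA-1 array and -2.64 on the siAURKA-2 array. It was thus 10.3-fold and 6.24-fold lower with the siRNAs than with siNT.

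With siAURKA-1, the comparison that asks what silencing AURKA does against a non-targeting siRNA, the lowest beta-tubulin genes relative to siNT were TUBB2A (-1.01), TUBB (-0.96), TUBB6 (-0.60) and TUBB4B (-0.53), and the other 4 gave between 0.00 (TUBB4A) and 0.08 (TUBB2B). In RNA from whole cultures, fewer cells that express a gene and less of its RNA per cell cannot be told apart. TUBB2A was the 1 member at least 2-fold away, and 1.96% of all genes were (1.38% lower). At 1.5-fold, 3 of 8 were lower and 0 higher, where 4.48% of all genes were lower and 2.57% higher. The median over the 8 genes was -0.26, and over all genes it was 0.00. With siAURKA-2, TUBB2A was again at least 2-fold lower (-1.13), as the 1 member past that size, where 1.26% of all genes were (0.872% lower). TUBB (-0.53), TUBB3 (-0.29) and TUBB4B (-0.21) followed, TUBB6 was near siNT (-0.04), and the median of the 8 was -0.12. At 1.5-fold TUBB2A remained the only member, beside 3.11% of all genes lower and 1.96% higher. These comparisons share the siNT array.

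With MLN8237 against DMSO, which asks what inhibiting the kinase does, no member reached 2-fold, and 0.0658% of all genes did. TUBB2A was the member furthest away (0.93, or 1.91-fold higher), with 16 of the 18239 genes at least as high, itself included. At 1.5-fold it was the 1 member, where 0.367% of all genes were higher and 0.115% lower. The other 7 lay between -0.08 (TUBB) and 0.19 (TUBB1), and the median of the 8 was 0.09. Between the control arrays, siNT minus DMSO, 0 members were 2-fold apart (0.296% of all genes) and TUBB2A again lay highest, at 0.71. It was the 1 member past 1.5-fold, where 1.53% of all genes were higher and 0.554% lower. MLN8237 minus DMSO and siNT minus DMSO share the DMSO array.

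**Figure D2:**
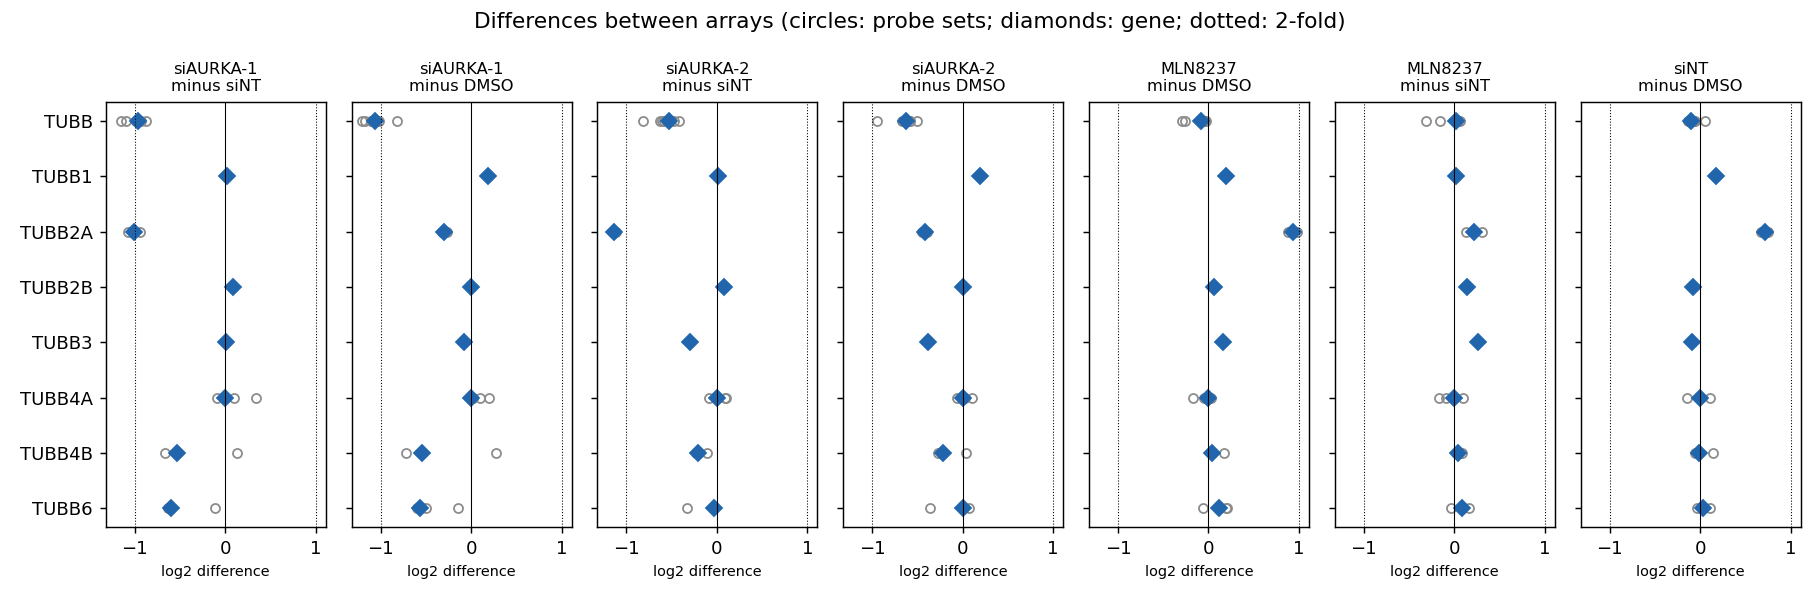
Log2 differences between pairs of arrays for each beta-tubulin gene, 1 panel per pair; circles are probe sets, diamonds the difference of the gene medians, and dotted lines mark 2-fold. TUBB lies left of 0 in every panel with an AURKA siRNA, from -1.06 to -0.53, while TUBB2A moves from -1.01 to -0.30 for siAURKA-1 when DMSO replaces siNT.

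TUBB, the main beta-tubulin of proliferating cells, was read by 6 probe sets. Its values were 0.10 with DMSO, 0.02 with MLN8237, 0.00 with siNT, -0.96 on the siAURKA-1 array and -0.53 on the siAURKA-2 array. The arrays with AURKA silenced were low and the other 3 lay within 0.10 of each other. On each of the 6 probe sets, both siAURKA arrays lay below all 3 others. The 6 probe sets gave between -1.16 and -0.87 for siAURKA-1 minus siNT, and between -0.82 and -0.41 for siAURKA-2 minus siNT. This put TUBB at 51.4% of its siNT value on the siAURKA-1 array and at 69.5% on the siAURKA-2 array. Set against DMSO, the differences were -1.06, which is past 2-fold, as 1.77% of all genes were, and -0.62, which is not, as 1.28% of all genes were. TUBB was thus lower with either siRNA whichever control array was used, and the choice moved the values by less than 0.10. Directly compared, siAURKA-1 minus siAURKA-2 was -0.44, with 6 of 6 probe sets in that direction (-0.57 to -0.16). No member was 2-fold apart between these siRNAs, where 2.16% of all genes were. With MLN8237 TUBB was close to both controls, at -0.08 from DMSO and 0.02 from siNT. Of the 6 probe sets, 5 were of the _x_at kind. The remaining one, of the _s_at kind, gave -0.87 and -0.63 for the siRNAs against siNT, and -0.26 for MLN8237 against DMSO.

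TUBB2A, a class II beta-tubulin that neurons express strongly, varied most over the arrays of all 8 members. Its values were 0.00 with DMSO, 0.93 with MLN8237, 0.71 with siNT, -0.30 on the siAURKA-1 array and -0.42 on the siAURKA-2 array. The range of 1.35 from the lowest to the highest array was reached by 341 of the 18239 genes (1.87%), and the median range over all genes was 0.22. MLN8237 and siNT were high, DMSO was intermediate and the siAURKA arrays were low. Its 2 probe sets ordered the 5 arrays alike and differed from each other by at most 0.10 on any array. They are of the _s_at and _x_at kinds, which may also match related transcripts, so their agreement is no independent check. Because DMSO and siNT differed, the size of the siRNA differences depended on the control. Against siNT they were -1.01 and -1.13, and against DMSO -0.30 and -0.42. Both were below 0 with either control array. For MLN8237 the difference was 0.93 against DMSO and 0.22 against siNT, positive on both probe sets in each case. The direct difference of siAURKA-1 and siAURKA-2 was 0.12.

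TUBB2B, the other class II gene, encodes a protein nearly identical to that of TUBB2A. Its single probe set read 0.00 with DMSO, siAURKA-1 and siAURKA-2, 0.06 with MLN8237 and -0.08 with siNT. Its range of 0.14 was below the median range of all genes. Over the arrays, the root mean square difference between the profiles of TUBB2A and TUBB2B, each centred on its mean, was 0.54. Whether TUBB2B was above background could not be read from centred values.

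TUBB4B, the widely expressed class IV gene, resembled TUBB in the order of the siRNA arrays. Its values were 0.01 with DMSO, 0.04 with MLN8237, 0.00 with siNT, -0.53 on the siAURKA-1 array and -0.21 on the siAURKA-2 array. The siAURKA-1 array was lowest and siAURKA-2 next, while the other 3 lay within 0.04 of each other. The 3 probe sets did not agree for siAURKA-1 minus siNT. The _x_at and _s_at probe sets gave -0.66 and -0.53, and the third, whose identifier carries no such mark, gave 0.13. For siAURKA-2 minus siNT all 3 were below 0, from -0.22 to -0.11. Against DMSO the gene values were -0.54 and -0.22. Its profile lay closer to that of TUBB than any other member's did, with a root mean square difference of 0.20, although both genes rest largely on probe sets that may match related transcripts.

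TUBB6, the class V gene, was low on 1 array. Its values were 0.00 with DMSO, 0.12 with MLN8237, 0.04 with siNT, -0.56 on the siAURKA-1 array and 0.00 on the siAURKA-2 array. For siAURKA-1 minus siNT its 3 probe sets gave -0.63, -0.60 and -0.11. For siAURKA-2 minus siNT they gave -0.04, -0.04 and -0.33, so that the probe set with the smallest difference for siAURKA-1 had the largest for siAURKA-2. The _s_at probe sets were the pair that gave about -0.60 for siAURKA-1. Directly, siAURKA-1 minus siAURKA-2 was -0.56 in the gene value, with 2 of 3 probe sets below 0. This was the largest difference between the siRNAs among the 8 members.

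TUBB3, the class III gene of neurons that many carcinomas also express, had values of 0.08 with DMSO, 0.25 with MLN8237, -0.01 with siNT, 0.00 on the siAURKA-1 array and -0.30 on the siAURKA-2 array. MLN8237 was highest and siAURKA-2 lowest, and 1 probe set gives no second reading of this order. For siAURKA-2 the difference was -0.29 from siNT and -0.39 from DMSO, and for siAURKA-1 it was 0.01 and -0.08.

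TUBB4A and TUBB1, the genes of brain and of platelets, hardly differed between arrays. TUBB4A had a gene value of 0.00 on every array. Of its 5 probe sets, 1 held 0 on all 5 arrays, as did 479 of the 49293 probe sets that were not controls, and the 5 together ranged from -0.09 to 0.34 for siAURKA-1 minus siNT. TUBB1 read -0.19 with DMSO, -0.02 with siNT and 0.00 on the other 3 arrays. Its largest differences, 0.19, were those of MLN8237 and of both siAURKA arrays from DMSO.

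Across the family, TUBB, TUBB2A and TUBB4B were the 3 of 8 members whose gene value lay lower on both siAURKA arrays than on all 3 other arrays. The same was true of 9.62% of all genes. No member lay at least 1.5-fold from siNT in opposite directions with the siRNAs. The order of the arrays was not common to the members. The siAURKA-1 array was the lowest for TUBB, TUBB4B and TUBB6, and siAURKA-2 was the lowest for TUBB2A and TUBB3. MLN8237 was the highest for TUBB2A, TUBB2B, TUBB3, TUBB4B and TUBB6. How often each array was the lowest or highest over all genes was not counted. The lead of MLN8237 was small for TUBB2B (0.06 against 0.00 with DMSO), TUBB4B (0.04 against 0.01 with DMSO) and TUBB6 (0.12 against 0.04 with siNT). On 1 of the 3 TUBB6 probe sets, MLN8237 lay below DMSO.

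Genes with the most similar profile were sought for the 2 members with a range of at least 1, by the root mean square difference of mean-centred values over the 5 arrays. For TUBB these were TEX30 (0.05), IFRD2 (0.06) and FANCI (0.06), the last a Fanconi anaemia protein of DNA crosslink repair. FANCI, with 3 probe sets, read 0.27 with DMSO, 0.00 with MLN8237, 0.11 with siNT, -0.85 on the siAURKA-1 array and -0.43 on the siAURKA-2 array. For TUBB2A no gene came as near, and the closest were RNF182, a ubiquitin ligase (0.17), RTL3 (0.18) and CLTRN (0.19). RNF182 read 0.00, 1.05, 0.64, -0.67 and -0.39 in the same order of arrays, from 1 probe set. TUBB and TUBB2A were 0.39 apart by this measure.

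The partners of beta-tubulin in the dimer, 8 alpha-tubulin genes, had a median of -0.52 for siAURKA-1 minus siNT, of -0.14 for siAURKA-2 minus siNT and of -0.02 for MLN8237 minus DMSO. Of the 8, 6 lay below siNT and 2 above with siAURKA-1, and 5 below and 3 above with siAURKA-2. Over all 18239 genes, 7690 lay below siNT and 8609 above with siAURKA-1, and 7722 below and 8374 above with siAURKA-2. TUBA1A shared with TUBB2A the higher values with MLN8237 (0.998) and siNT (0.91) than with DMSO. It was also lower with siAURKA-1 than with siNT (-1.30), but with siAURKA-2 it differed from siNT by 0.37 where TUBB2A differed by -1.13. From DMSO, TUBA1A was -0.39 with siAURKA-1 and 1.28 with siAURKA-2, so the size of its siRNA differences depended on the control. TUBA4A, the lowest of the 8 with siAURKA-2, was below siNT with both siRNAs (-1.04 and -1.17). From DMSO, TUBA4A was -0.75 and -0.88 with the siRNAs, 0.25 with MLN8237 and 0.29 with siNT.

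New beta-tubulin chains pass from prefoldin to the CCT chaperonin and then to tubulin cofactors, which join them to alpha-tubulin. At 1.5-fold, 4.48% of all genes were lower and 2.57% higher with siAURKA-1 against siNT. With siAURKA-2 against siNT these shares were 3.11% and 1.96%, and with MLN8237 against DMSO 0.115% and 0.367%. Lists as short as those below would hold few or no such genes at these shares. Of the 8 CCT subunits, 1 lay at least 1.5-fold below siNT with each siRNA and 0 lay as far above it. It was CCT6A in both (-0.91 and -0.89), read by 1 probe set, and the medians of the list were -0.07 and -0.07. Of the 6 prefoldin subunits, 0 reached 1.5-fold in any of the 3 treatment comparisons, siRNAs against siNT and MLN8237 against DMSO. The values furthest from siNT were those of PFDN6 with siAURKA-2 (-0.53) and PFDN1 with siAURKA-1 (-0.44). PFDN5 was the highest with both siRNAs (0.38 and 0.26). Against DMSO, PFDN6 was past 1.5-fold with siAURKA-2 (-0.66). The 7 tubulin cofactor genes had 0 past 1.5-fold in the 3 treatment comparisons. Among them TBCC, which triggers GTP hydrolysis on the assembled dimer, was highest with both siRNAs (0.53 and 0.26 above siNT) and TBCB lowest (-0.05 and -0.33), and siNT minus DMSO was itself -0.37 for TBCC. With MLN8237 the medians of these lists lay between -0.08 and 0.03.

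Of the 3 genes listed for autoregulation, TTC5, which recognises newly made tubulin on the ribosome, was 0.01 and -0.15 from siNT with the siRNAs and -0.20 from DMSO with MLN8237. SCAPER, which links TTC5 to the CCR4-NOT deadenylase, was 0.05 and 0.59 above siNT, the latter past 1.5-fold. CNOT11, the CCR4-NOT subunit it contacts, was at -0.45 and 0.00. Of 17 genes that add or remove glutamate or glycine on tubulin tails, 0 reached 1.5-fold with either siRNA or with MLN8237. TTLL4, a glutamylase that acts on beta-tubulin, was the lowest in each of these comparisons (-0.28, -0.05 and -0.18).

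**Figure D3:**
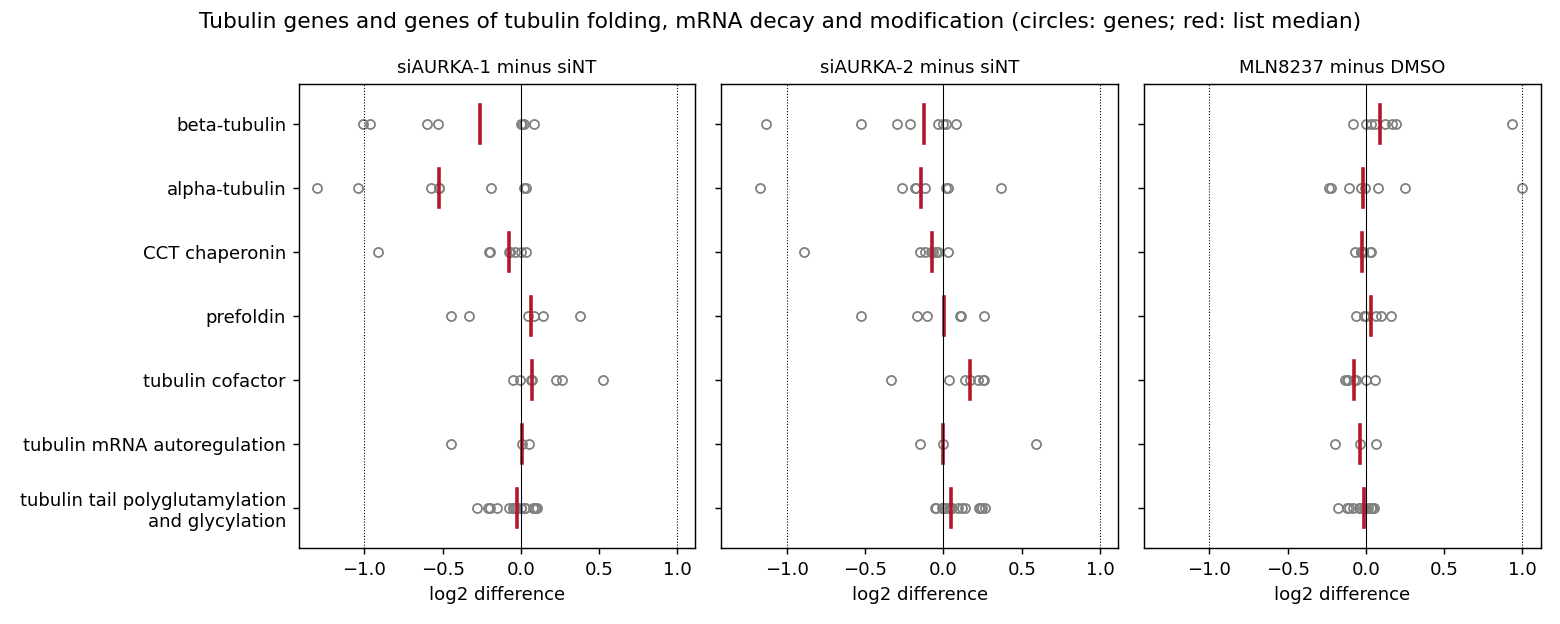
Log2 differences of tubulin genes and of genes of tubulin folding, mRNA decay and tail modification, 1 row per list and 1 panel per comparison; circles are genes, red bars list medians and dotted lines 2-fold. With siAURKA-1 the medians of beta-tubulin (-0.26) and alpha-tubulin (-0.52) lie left of 0, and those of the CCT, prefoldin, cofactor, autoregulation and tail modification lists lie between -0.07 and 0.07.

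Markers of other cell types and signs of RNA quality were set beside these values. The 6 fibroblast, 4 measured leukocyte and 4 endothelial markers had 0 genes past 1.5-fold in the siRNA, MLN8237 and siNT minus DMSO comparisons. At that size, 4.48% of all genes were lower with siAURKA-1 against siNT. The share of all genes was smaller in every other direction or comparison of these, so marker lists this short would hold few or none. Among 7 neuronal markers, of interest because TUBB2A, TUBB2B, TUBB3 and TUBB4A are abundant in neurons, MAP2, a microtubule-associated protein, was 1.38 above siNT with siAURKA-1, and SYT1 was 0.76 higher with siNT than with DMSO. Each was the 1 neuronal marker past 1.5-fold in its comparison, and 0 were for siAURKA-2 minus siNT or MLN8237 minus DMSO. With siAURKA-2, MAP2 was 0.05 above siNT, and SYT1 was -0.04 and -0.13 from siNT with the siRNAs. The median of the 7 lay between 0.00 and 0.04 in these comparisons. Of 5 measured squamous epithelial markers, the labelled cell type, KRT5 was at -1.82 with siAURKA-2 and CDH1 at 0.60 with siAURKA-1 against siNT, and DSG3 was 0.62 higher with siNT than with DMSO, each the 1 marker of that list past 1.5-fold in its comparison. Whether any marker was present could not be judged from centred values. The 3′ minus 5′ difference of the control probe sets lay between -0.02 and 0.05 for GAPDH and between -0.11 (DMSO) and 0.14 (siNT) for ACTB over the 5 arrays. The control probe sets were centred as well, so these differences only compare the arrays with each other. Whether the RNA was intact could not be read from them. The part of cell type markers and RNA quality in the beta-tubulin values was not tested.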

How the data were processed

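GFP-SAS cells in 5 treatment groups, 1 array each, were grouped by the treatment named in the labels. Per the labels' protocols, 10 ng of total RNA was labelled with a 3' in vitro transcription kit. The submitters' processing notes name RMA, a method of background correction, quantile normalization and median polish, while its software and log base were not given in the sources used here. The deposited values are taken as log2. In all 49386 rows the median over the 5 arrays was 0, which shows that the deposited log2 values were centred within probe sets.

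Probe sets were named from GEO's platform annotation, with symbols checked by Entrez number against RefSeq, and 45253 named 1 gene. Gene values were medians of probe sets (Python 3.11.15, pandas 2.3.3). Differences were sorted at 2-fold, with no p-value. The calculation was tested on simulated data. No probe set named a member together with another gene. Named genes were all members, AURKA, the highest and lowest gene of each list in each treatment comparison (given where a result turns on them), and the 3 nearest profiles of members with a range of at least 1. Members and lists were chosen with earlier results of these data known. Alternatives were the mean of probe sets, leaving out _x_at and _s_at probe sets, adding probe sets of several genes, centring arrays, the other control and other sizes. Leaving out _x_at probe sets alone and the median of probe set differences were added after seeing the data.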

Additional observations from a re-analysis of the deposited data

How the results depend on the processing

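Without _x_at and _s_at probe sets only TUBB1, TUBB4A, TUBB4B and TUBB6 kept a value, so TUBB and TUBB2A could not be checked that way. The median for siAURKA-1 minus siNT then turned from -0.26 to 0.074, that for siAURKA-1 minus siAURKA-2 went from 0.00 to 0.17, and 0 members passed 2-fold with siAURKA-1 or siAURKA-2 against siNT. Without _x_at probe sets alone, 6 members kept a value, and for siAURKA-1 the median was -0.40 with 0 past 2-fold, since TUBB2A came to -0.94. Averaging probe sets put 2 members past 2-fold with siAURKA-1, as TUBB passed that size. At 1.5-fold the counts were 3 for siAURKA-1, 1 for MLN8237 and 1 for siNT minus DMSO, and at 3-fold they were 0 for siAURKA-1 and siAURKA-2. Against DMSO, 0 members passed 2-fold with siAURKA-2. Centring arrays could change no value, because the median of each array over all genes was already 0. Adding probe sets of several genes could change none either, because no such probe set named a member. TUBB2A, the 1 member past 2-fold against siNT, stayed below it with both siRNAs without _x_at probe sets (-0.94 and -1.12). Against DMSO it was at -0.30 and -0.42. Averaging could not change TUBB2A, because the mean of 2 probe sets is their median. Members short of 2-fold did change direction without _x_at and _s_at probe sets. TUBB4B turned from -0.53 to 0.13 for siAURKA-1 minus siNT, and TUBB6 from -0.56 to 0.22 for siAURKA-1 minus siAURKA-2. Another background correction or normalization, a filter on dim probe sets and a slide block were not run, because the values used here hold no raw intensity, level or slide. No paired analysis was possible because each group has 1 array and the labels carry no replicate numbers.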

Other observations

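Some probe sets name beta-tubulin relatives outside the 8 genes. TUBB8, a beta-tubulin of oocytes, had 2 probe sets of its own, at 0.37 and 0.04 for siAURKA-2 minus siNT and at -0.05 and 0.00 for siAURKA-1 minus siNT. The transcribed pseudogene TUBBP5 gave -0.51 and -0.28 in the siAURKA-1 and siAURKA-2 comparisons with siNT from a single _s_at probe set of its own, and siNT lay 0.29 above DMSO on it. An _s_at probe set that names TUBBP5 together with TUBB8 and TUBB7P gave -0.15 and -0.01 in the same comparisons. Another with the same names gave -0.01 and 0.19.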
